A study of Mus musculus with 4 samples.

Results

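The genes described here encode the enzymes that turn plasminogen into plasmin, the cell-surface proteins that hold these enzymes and plasminogen in place, and serpins of the same system. They are *Plau*, *Plat*, *Plaur*, *Serpinb2*, *Serpine2*, *Serpinf1*, *Anxa2* and *S100a10*, 8 of the 46517 genes listed in the expression tables, and were picked by name with ratios of these libraries already known. All their values are therefore a description, and none was tested. The label under which they were grouped calls the serpins inhibitory, which as background holds for *Serpinb2* and *Serpine2*, whereas *Serpinf1* encodes a serpin known not to inhibit proteases. All 8 genes passed the filter on low values, 10 or more exon reads on average, as did 11352 genes in all.

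The libraries came from PαS cells, mesenchymal cells with the sort profile CD45-CD11b-Ter119-CD31-CD34-PDGFRalpha+Sca1+, taken from the wounded tissue inside and around the femur of wild-type C57BL/6J mice. All cells were kept for 7 days in osteogenic medium, without cytokine, with IL-17A at 10 ng per ml, with BMP-2 at 500 ng per ml, or with both cytokines at these doses, and 1 library was made for each of the 4 conditions. IL-17A is a cytokine of T cells in inflamed tissue and BMP-2 a growth factor that drives mesenchymal cells towards bone-forming osteoblasts. The comparisons address which of the plasminogen genes differed under either cytokine alone, and under IL-17A where BMP-2 was present. Since each condition is a single library, no difference has a replicate check, and every interval below covers counting error only. Copies made by PCR were not told apart from separate molecules, so the intervals can be too narrow even for that.

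Reads assigned to genes numbered 4490743 to 5083430 per library. The 7 mesenchymal markers examined, among them *Pdgfra* and *Ly6a*, which encodes Sca-1, had reads in every library, with a summed level of 2927 to 3664 RPKM. Of 8 markers of myeloid and other blood cells, 8 had reads in the untreated library, 5 under IL-17A, 7 under BMP-2 and 4 under both cytokines. Their summed level was 105, 96.0, 299 and 77.9 RPKM in these libraries, most of it *Lyz2*, whereas *Ptprc*, which encodes CD45, had 0 to 4 reads. Of 5 endothelial markers *Pecam1* and *Cdh5* had 0 reads in all libraries, whereas *Cd34*, *Kdr* and *Tek* had reads in some of them, for a summed level of 0.960 to 6.29 RPKM. The 4 haemoglobin genes examined had 0 reads throughout. The summed level of 4 skeletal muscle markers was 44.7 RPKM in the untreated library, 39.7 under IL-17A, 30.8 under BMP-2 and 25.5 under both cytokines. Most of it was *Acta1*, with 168 to 266 reads, and *Ckm* had 0 reads in all libraries.

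Plasmin is a protease that dissolves fibrin clots and cuts matrix proteins, and it is made at cell surfaces from plasminogen by the urokinase-type activator uPA (*Plau*) or the tissue-type activator tPA (*Plat*). uPA binds a lipid-anchored receptor, uPAR (*Plaur*), and plasminogen and tPA bind a complex of annexin A2 (*Anxa2*) and its partner p11 (*S100a10*). Serpins trap the activators in inactive complexes: PAI-2 (*Serpinb2*) is a largely intracellular protein known as inducible in macrophages and other cells, and protease nexin-1 (*Serpine2*) acts on thrombin as well as on the activators. In injured bone the fibrin clot of the haematoma is cleared as repair tissue forms. Pigment epithelium-derived factor (*Serpinf1*) is a secreted protein of mesenchymal and osteoblastic cells, and people who lack it have brittle bones.

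*Serpinb2* had by far the widest range of the 8 genes, and the bases upstream of its start are shown for that reason beside those of *Plaur*, the uPA receptor gene, whose highest level was 1.31 times its lowest. Both are RefSeq entries on GRCm38.p6, the plus strand, and end 1 base before the annotated start. *Serpinb2* has 2 start sites in that table, and the window of the upstream one is given. Capitals mark matches, on either strand, to 4 motifs. The TATA box was searched as TATAAA and the site of AP-1 factors as TGANTCA. The site of C/EBP factors was searched as TTGCNNAA and the box of Sp1 factors as GGGCGG. Matches to different motifs do not overlap one another here.
Serpinb2 promoter, chr1:107511173-107511422: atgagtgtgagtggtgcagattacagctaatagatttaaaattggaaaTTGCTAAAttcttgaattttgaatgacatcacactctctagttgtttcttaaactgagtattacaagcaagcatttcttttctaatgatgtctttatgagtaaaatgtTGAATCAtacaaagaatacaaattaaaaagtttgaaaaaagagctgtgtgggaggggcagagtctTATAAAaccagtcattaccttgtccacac
Plaur promoter, chr7:24462233-24462482: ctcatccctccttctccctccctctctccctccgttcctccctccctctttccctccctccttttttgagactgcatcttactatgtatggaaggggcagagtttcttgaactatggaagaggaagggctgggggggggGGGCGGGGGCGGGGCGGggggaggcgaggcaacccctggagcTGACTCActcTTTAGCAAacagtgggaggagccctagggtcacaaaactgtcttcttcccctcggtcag

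The *Serpinb2* window held a TATA box from base -29, an AP-1 match from base -94 and a C/EBP match from base -202, counted from the start site. The *Plaur* window held an AP-1 match from base -69, a C/EBP match on the other strand from base -59, and 3 copies of the Sp1 box. Among 32851 RefSeq promoter windows of 250 bases, 12.4% held the TATA box, 6.75% the AP-1 motif, 9.56% the C/EBP motif and 32.7% the Sp1 box. The AP-1 and C/EBP letters were thus present in both windows, the TATA box in that of *Serpinb2* and the Sp1 box in that of *Plaur*. A match is a description of the letters and not of a bound site. Entries were present for 5 of the 8 genes: *Anxa2* matched the TATA, AP-1 and Sp1 motifs, *Serpine2* held 6 copies of the Sp1 box, and *Serpinf1* matched none of the 4 motifs.

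The 3′ untranslated regions were searched for the adenine- and uracil-rich element known from unstable mRNAs, written TTATTTATT in DNA letters. It contains shorter forms, the same letters without the last T and the core ATTTA, which were counted too. The full element was present in *Serpinb2* and in none of the other 7 genes, and *Plau* held the form without the last T. The best match of each is shown in capitals within 30 bases of the GENCODE M21 transcript (GRCm38, plus strand).
Serpinb2, chr1:107525197-107525226: ttttacagtgTTATTTATTgtttatataat
Plau, chr14:20843316-20843345: ttctgctatttTTATTTATatctattttta

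In *Serpinb2* the element began at base 266 of a 3′ untranslated region of 657 bases, and 4.23% of 780 genes with a region of like length held it. ATTTA occurred 6 times in *Serpinb2*, 2 times each in *Plau*, *Plat* and *Plaur*, once in *Serpinf1*, and not at all in *Serpine2*, *Anxa2* and *S100a10*. The 5-base form was common: 62.9% of genes with a region as long as that of *Serpinb2* held it.

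Levels are given as RPKM, exon reads divided by the length of the exons and by the depth of the library, which allows genes of different length to be compared. *Serpinf1* was the highest of the 8 genes in every library, followed by *Anxa2* and *S100a10*, and *Serpinf1* stood between rank 16 and rank 32 of all genes. *Plaur* and *Serpine2* came next, *Plat* was lower and *Plau* was at 5 RPKM or less throughout. *Serpinb2* had the lowest level of the 8 without cytokine, where its interval overlapped that of *Plau*, took the sixth place with IL-17A and the seventh with BMP-2, and took the fourth place with both cytokines. There its level of 121 RPKM (95% Poisson interval 115 to 127) lay above that of *Plaur*, 95.8 RPKM (88.8 to 103).

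**Figure D1:**
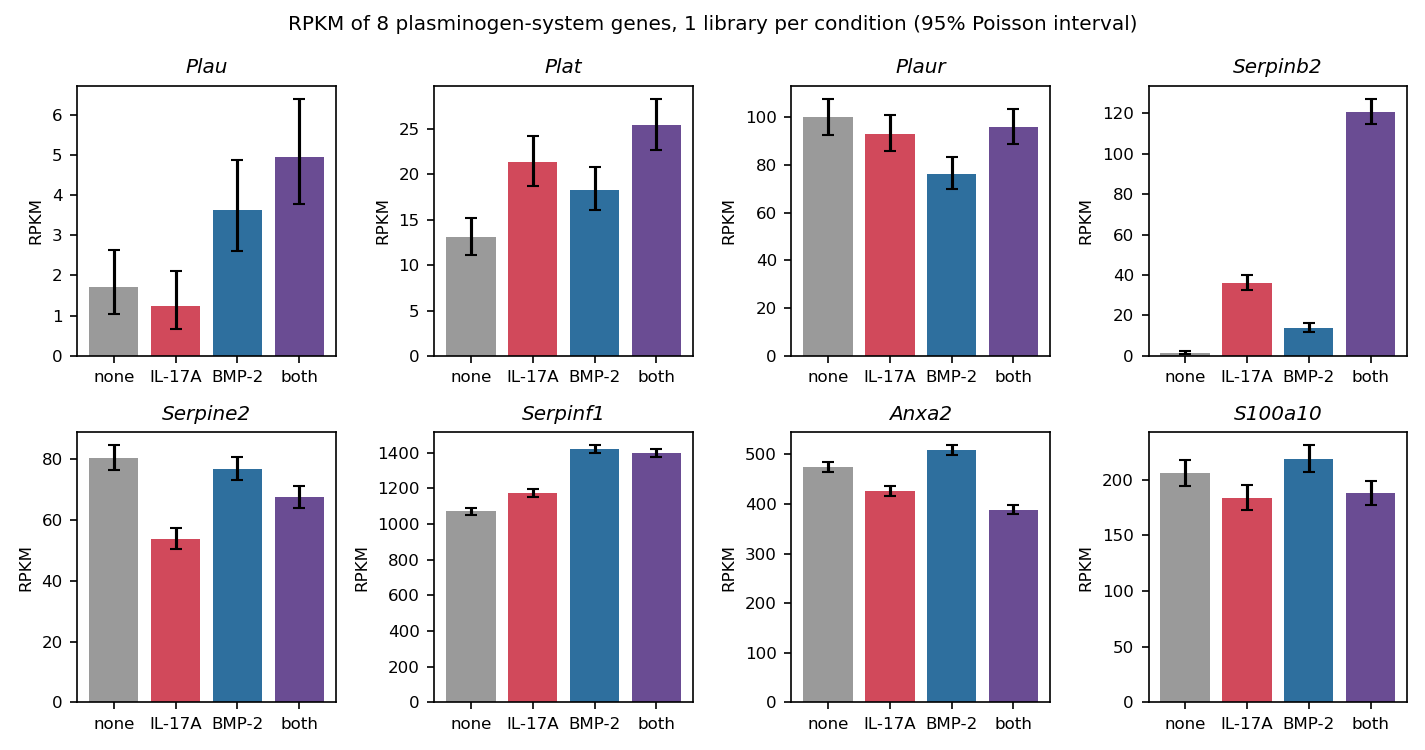
RPKM of the 8 genes, 1 panel per gene with its own vertical axis from 0, for the untreated library and those under IL-17A, BMP-2 and both cytokines. Bars are the level of the single library and error bars the 95% Poisson interval of its exon reads; *Serpinb2* runs from 1.37 to 121 RPKM, whereas *S100a10* stays between 184 and 219 RPKM.

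*Plau*, the uPA gene (ENSMUSG00000021822, chr14:20836662-20843388, plus strand, mm10), had 20 exon reads in the untreated library, 13 under IL-17A, 43 under BMP-2 and 59 under both cytokines, or 1.71, 1.24, 3.62 and 4.95 RPKM. The libraries with BMP-2 were the higher ones. Ratios between libraries were taken from exon reads scaled to comparable library sizes by TMM. With BMP-2 alone the ratio to no cytokine was 2.10 (95% interval 1.21 to 3.77), and with both cytokines it was 2.81 (1.66 to 4.92). Both cytokines over IL-17A gave 3.96 (2.15 to 7.87). The ratio for IL-17A alone, 0.708 (0.324 to 1.5), and that for both over BMP-2, 1.33 (0.885 to 2.02), lay within counting error.

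The few reads of *Plau* limit these values. Spliced reads alone, those that cross an exon boundary, gave 1.60 (0.791 to 3.37) for BMP-2 over none, within counting error. For both over BMP-2 they gave 1.76 (1.03 to 3.07), higher beyond counting error, unlike all exon reads. For the 1983 genes that averaged 10 to 50 reads, the log2 ratio of BMP-2 over none had an SD of 1.68, whereas counting alone gives 0.43, and the log2 ratio of *Plau* was 1.07. In this range of depth the endothelial receptor gene *Kdr* had 117 reads in the untreated library, 0 under IL-17A, 70 under BMP-2 and 0 under both cytokines.

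*Plat*, the tPA gene (ENSMUSG00000031538, chr8:22757744-22782847, plus strand), had 165 exon reads in the untreated library, 243 under IL-17A, 235 under BMP-2 and 327 under both cytokines, or 13.1, 21.4, 18.3 and 25.4 RPKM. It was lowest without cytokine, and with TMM scaling the libraries with IL-17A and with both cytokines did not differ beyond counting error. The ratio to no cytokine was 1.60 (1.31 to 1.97) under IL-17A, 1.39 (1.14 to 1.71) under BMP-2 and 1.88 (1.56 to 2.29) with both, none reaching 2-fold. Both over BMP-2 gave 1.35 (1.14 to 1.61), but 1.04 (0.823 to 1.32) from spliced reads alone. Both over IL-17A gave 1.17 (0.992 to 1.39), but 0.872 (0.693 to 1.1) from spliced reads. Scaled by library totals that ratio was 1.20 (1.01 to 1.42), and as RPKM 1.19 (1.004 to 1.41), both above counting error. The IL-17A ratio with BMP-2 over that without was 0.843 (0.650 to 1.09) from exon reads and 0.558 (0.395 to 0.789) from spliced reads. For the 2564 genes that averaged 200 to 500 reads, log2 ratios for IL-17A alone had an SD of 0.55, near the log2 ratio of 0.68 of *Plat*.

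*Plat* exceeded *Plau* in every library, per length of exon, by 7.64 times in the untreated library, 17.3 times under IL-17A, 5.06 times under BMP-2 and 5.13 times under both cytokines. The summed level of both activators was 14.8 RPKM in the untreated library, 22.6 under IL-17A, 21.9 under BMP-2 and 30.4 under both cytokines. Plasminogen itself (*Plg*), which the liver makes for the blood, had 0 reads in all 4 libraries, as had the plasmin inhibitor gene *Serpinf2*.

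*Plaur*, the uPA receptor gene (ENSMUSG00000046223, chr7:24462500-24475873, plus strand), had 696 exon reads in the untreated library, 584 under IL-17A, 541 under BMP-2 and 680 under both cytokines, or 100, 93.2, 76.4 and 95.8 RPKM. The library with BMP-2 alone was the low one, with a ratio of 0.760 (0.678 to 0.852) to no cytokine. The ratio for IL-17A alone, 0.914 (0.818 to 1.02), lay within counting error, but spliced reads gave 0.870 (0.764 to 0.990), lower beyond it. Where BMP-2 was present, IL-17A went with a ratio of 1.22 (1.09 to 1.37). Receptor mRNA was 19.3 to 75.4 times as abundant as that of *Plau*, its ligand gene, per length of exon.

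*Anxa2*, the annexin A2 gene (ENSMUSG00000032231, chr9:69453620-69491795, plus strand), had 8807 exon reads in the untreated library, 7146 under IL-17A, 9604 under BMP-2 and 7372 under both cytokines, or 474, 427, 508 and 389 RPKM. Both libraries with IL-17A were below both libraries without it. The ratio to no cytokine was 0.884 (0.857 to 0.912) with IL-17A, and both over BMP-2 gave 0.746 (0.724 to 0.769). *S100a10*, the gene of its partner p11 (ENSMUSG00000041959, chr3:93555080-93564643, plus strand), had 1243, 999, 1344 and 1158 exon reads in the same order, or 206, 184, 219 and 188 RPKM. Its ratio with IL-17A alone, 0.876 (0.805 to 0.952), was close to that of *Anxa2*. On top of BMP-2 its IL-17A ratio was 0.837 (0.774 to 0.907), above that of *Anxa2* with intervals that did not overlap. From spliced reads the intervals did overlap, at 0.860 (0.764 to 0.967) for *S100a10* and 0.762 (0.734 to 0.791) for *Anxa2*.

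The RPKM of *Anxa2* was 2.30 times that of *S100a10* without cytokine (2.17 to 2.44), 2.32 times with IL-17A (2.17 to 2.49) and 2.32 times with BMP-2 (2.19 to 2.46). With both cytokines it was 2.07 times (1.94 to 2.20), the lowest of the libraries. The ratios of *Anxa2* lay within the spread of genes as abundant: over 332 genes that averaged 2000 to 20000 reads, the log2 ratio of both over BMP-2 had an SD of 0.51, and that of *Anxa2* was -0.42.

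*Serpinb2*, the PAI-2 gene (ENSMUSG00000062345, chr1:107511423-107535478, plus strand), had 16 exon reads in the untreated library, 380 under IL-17A, 166 under BMP-2 and 1442 under both cytokines, or 1.37, 36.0, 13.9 and 121 RPKM. Each cytokine alone went with a higher level than none, and both together with a higher level than either alone. All these reads were unique to the gene. In bulk RNA, more cells that express a gene and more RNA per cell cannot be told apart.

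IL-17A over none gave a *Serpinb2* ratio of 25.9 (15.7 to 45.7), rank 189 from the top of 11352 genes. BMP-2 over none gave 10.2 (6.07 to 18.2), rank 242. Both over none gave 85.7 (52.6 to 150), rank 144. Between libraries with many reads, both over BMP-2 gave 8.44 (7.19 to 9.98), rank 369, and both over IL-17A gave 3.31 (2.96 to 3.72), rank 522.

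The first 3 of these ratios all rest on the 16 reads of the untreated library. Of those reads 4 were spliced, 25% (exact interval 7.27 to 52.4%), whereas 60.1 to 60.3% were spliced in the other libraries. From spliced reads alone the ratio to no cytokine was 62.0 (23.9 to 229) under IL-17A, 24.4 (9.24 to 91.3) under BMP-2 and 209 (81.2 to 767) with both. The ratios between the libraries with cytokine hardly moved, at 8.55 for both over BMP-2 and 3.37 for both over IL-17A.

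The IL-17A ratio of *Serpinb2* was smaller where BMP-2 was present, a comparison that rests on the 16 reads of the untreated library. In RPKM the step was the larger one there, from 13.9 to 121 with BMP-2 against 1.37 to 36.0 without it. Dividing both over BMP-2 by IL-17A over none gave 0.326 (0.193 to 0.552), and spliced reads gave 0.138 (0.0502 to 0.379). Of 10544 genes with reads in every library, 8.87% had a value as low or lower. In all 4 single steps, from none to each cytokine and from each cytokine to both, *Serpinb2* was at least 2-fold higher, among 19 such genes of 11352, or 0.167%. Of these 19 genes, 8 had 0 reads in a library. The log2 ratios of *Serpinb2* were 3.08 for both over BMP-2 and 1.73 for both over IL-17A. Over the 1518 genes that averaged 500 to 2000 reads, the SDs of these log2 ratios were 0.47 and 0.42. *Serpinb2* averaged 501 reads, at the edge of that range, and only through its 1442 reads under both cytokines. Over the 2564 genes that averaged 200 to 500 reads, the SDs were 0.65 and 0.59.

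As background, *Serpinb2* is also known as a gene of activated macrophages. The summed level of the 8 myeloid and blood markers was lowest, at 77.9 RPKM, in the library with both cytokines, where *Serpinb2* was highest, and highest, at 299 RPKM, in the library with BMP-2 alone. Without *Lyz2*, the sums were 18.2 RPKM in the untreated library, 6.50 under IL-17A, 29.7 under BMP-2 and 14.2 under both cytokines. *Ptprc* and *Itgam*, which encode CD45 and CD11b, had 0 reads in the library with both cytokines, and *Csf1r* had 183 there, its highest count. A part of blood cells in the *Serpinb2* values was not tested.

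The related serpin genes around *Serpinb2* on chromosome 1 did not share its reads or its pattern. *Serpinb10*, listed as a pair of rows of which 1 overlaps *Serpinb2*, had 0 reads in all libraries, as had *Serpinb11* and *Serpinb3a* to *Serpinb3d*. *Serpinb7* had 4 reads in the library without cytokine and 0 elsewhere. *Serpinb8* had 19, 17, 69 and 0 reads in the untreated library, under IL-17A, under BMP-2 and under both.

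*Serpine2*, the protease nexin-1 gene (ENSMUSG00000026249, chr1:79794197-79861180, minus strand), had 1579 exon reads in the untreated library, 951 under IL-17A, 1534 under BMP-2 and 1350 under both cytokines, or 80.5, 53.8, 76.9 and 67.5 RPKM. The library with IL-17A alone was the low one by exon reads, where both over IL-17A gave 1.24 (1.14 to 1.35). From spliced reads that ratio was 0.962 (0.845 to 1.09), within counting error. The ratio to no cytokine was 0.656 (0.605 to 0.712) with IL-17A, and both over BMP-2 gave 0.855 (0.794 to 0.921). The IL-17A ratio with BMP-2 over that without was 1.30 (1.17 to 1.45) from exon reads and 1.03 (0.867 to 1.21) from spliced reads, the latter within counting error.

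*Serpinf1*, the PEDF gene (ENSMUSG00000000753, chr11:75409769-75422701, minus strand), had 12611 exon reads in the untreated library, 12433 under IL-17A, 16984 under BMP-2 and 16765 under both cytokines, or 1072, 1174, 1420 and 1398 RPKM. The libraries with BMP-2 were above those without. BMP-2 over none gave 1.32 (1.29 to 1.35) and both over IL-17A gave 1.18 (1.15 to 1.20). The IL-17A ratio was 1.07 (1.05 to 1.1) without BMP-2 and 0.959 (0.939 to 0.980) with it. The latter lay within counting error when scaled by library totals, 0.987 (0.966 to 1.01), as RPKM, 0.984 (0.964 to 1.01), or from spliced reads, 1.00 (0.975 to 1.03). Over the 332 genes that averaged 2000 to 20000 reads, log2 ratios of IL-17A over none had an SD of 0.46, and that of *Serpinf1* was 0.10. For BMP-2 over none the SD was smaller, 0.26, and the log2 ratio of *Serpinf1* was 0.40.

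**Figure D2:**
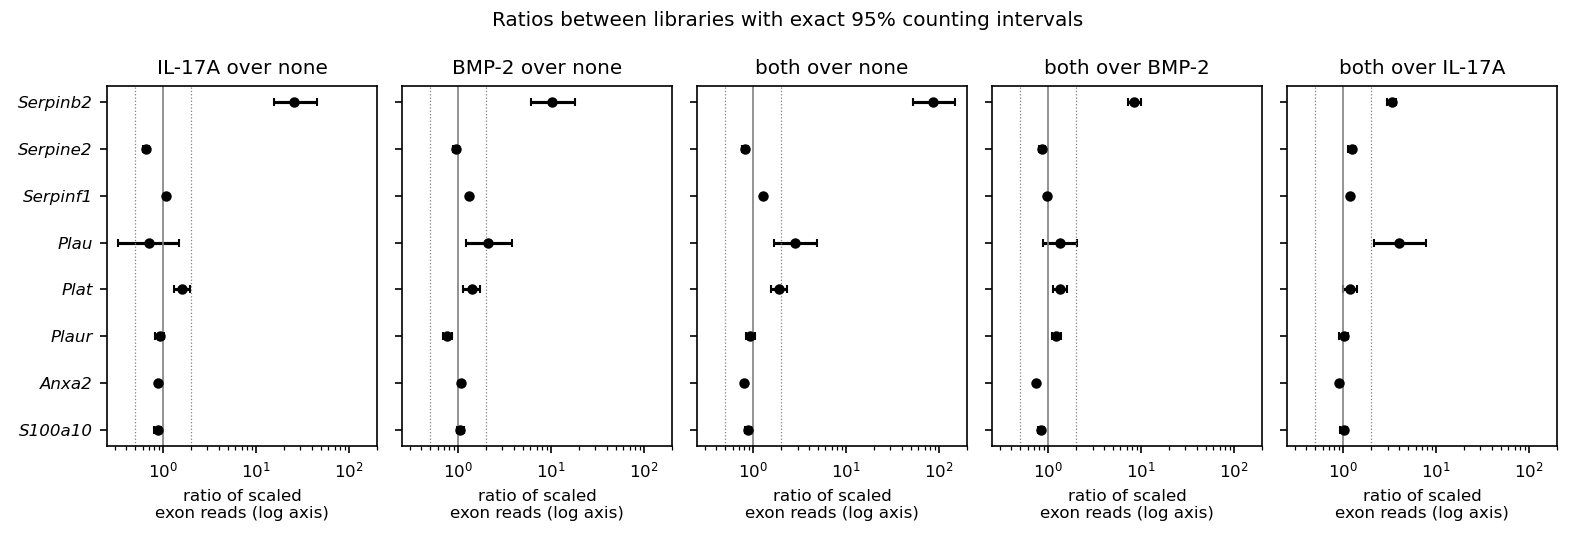
Ratio of TMM-scaled exon reads for each of the 8 genes, 1 panel per comparison on a shared log axis. Points are ratios of 2 single libraries, bars exact 95% counting intervals, the solid line marks 1 and the dotted lines 0.5 and 2; *Serpinb2* lies right of the upper dotted line in all 5 panels, from 3.31 to 85.7, and no gene lies left of the lower one.

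A gene was counted as 2-fold apart where it was 2 or more times as high, or 0.5 times as high or less, with an interval clear of 1. For IL-17A over none 1 of the 8 genes, *Serpinb2*, was 2-fold higher, beside 10.9% of all measured genes, and 0 were 2-fold lower, beside 9.91%. For BMP-2 over none 2 of 8 were 2-fold higher, *Serpinb2* and *Plau*, beside 10.7%, and 0 lower, beside 11.8%. The same 2 were higher for both over none, beside 12.1%, and for both over IL-17A, beside 9.91%, with 0 lower in either, beside 14.2% and 13.6%. For both over BMP-2 only *Serpinb2* of the 8 was 2-fold higher, beside 12.9%, and 0 were lower, beside 14.1%.

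A single gene is 12.5% of the 8, so these counts lay about 1 gene from the shares of all genes. The median log2 ratio of the 8 genes was -0.15 for IL-17A over none, 0.25 for BMP-2 over none, 0.12 for both over none, 0.11 for both over BMP-2 and 0.23 for both over IL-17A, whereas the median of all measured genes lay between -0.01 and 0.00 in these comparisons. Beyond counting error, 3 of the 8 were higher under IL-17A alone and 3 were lower, where 29.8% of all genes were higher and 29.3% lower. For BMP-2 over none 5 were higher and 1, *Plaur*, lower, beside 29.6% and 31.1%. For both over none 4 were higher and 3 lower, beside 31.7% and 33.5%, and for both over IL-17A 4 higher and 1, *Anxa2*, lower, beside 29.8% and 32.5%. With IL-17A alone *Serpinb2*, *Plat* and *Serpinf1* were the higher ones and *Serpine2*, *Anxa2* and *S100a10* the lower ones. For both over BMP-2, 3 were higher and 4 lower, beside 32.7% and 33.2%, and *Plaur* stood among the higher and *Serpinf1* among the lower genes.

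**Figure D3:**
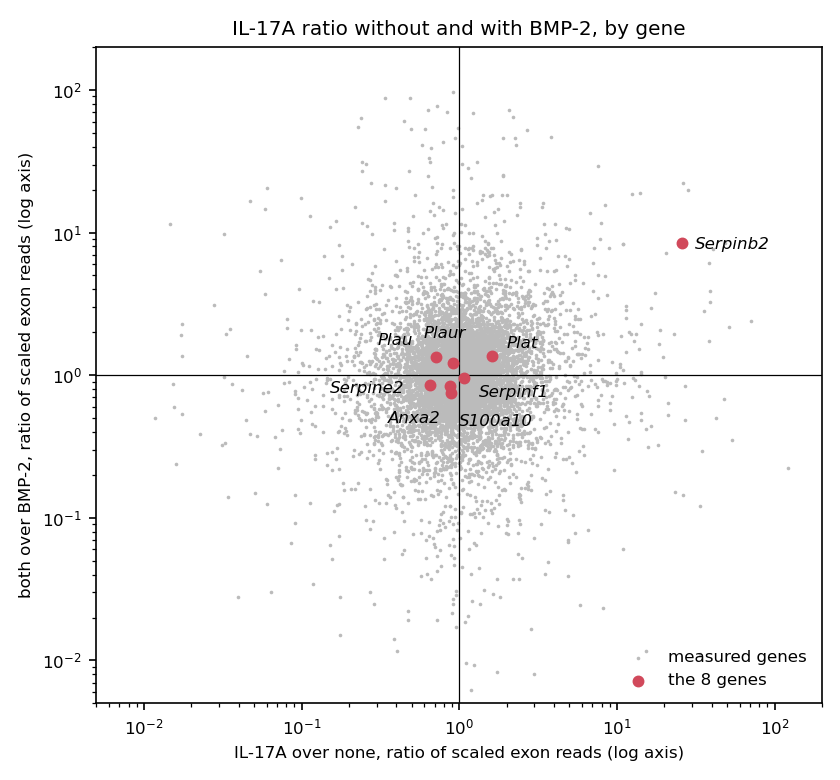
Ratio of TMM-scaled exon reads for IL-17A over none (horizontal, log axis) and for both over BMP-2 (vertical, log axis), 1 point per gene, for the 10544 measured genes with reads in all libraries, the 8 genes in red. *Serpinb2*, at 25.9 and 8.44, lies at the upper right, and the other 7 genes lie within the central cloud.

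*Serpinb2* and *Serpine2*, which both encode serpins that bind plasminogen activators, stood in the opposite order in the library with both cytokines. Per length of exon, the level of *Serpinb2* was 0.017 times that of *Serpine2* in the untreated library, 0.669 times under IL-17A, 0.181 times under BMP-2 and 1.79 times under both cytokines. The sum of these 2 serpins was 81.9 RPKM in the untreated library, 89.9 under IL-17A, 90.9 under BMP-2 and 188 under both cytokines. It exceeded the summed level of *Plau* and *Plat* in all 4 libraries, by 5.54 times in the untreated library, 3.97 times under IL-17A, 4.14 times under BMP-2 and 6.2 times under both cytokines. The sum of *Serpinb2* and *Serpine2* is not that of all inhibitors of the activators, so these ratios do not give the balance of the whole system. Of the RPKM of all serpins, *Serpinf1* made up 35.9 to 46.9% and *Serpinb2* 0.0483 to 3.76%.

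Another 22 genes of plasminogen binding, activation and clotting were examined, of which 13 were measured and 6 had 0 reads in every library. With IL-17A alone 1 of the 13 was 2-fold higher and 0 lower, beside 10.9% and 9.91% of all measured genes, and their median log2 ratio was -0.00. In the other comparisons 1 was 2-fold higher, again *Thbd*, and 0 lower, except for both over IL-17A, where 0 were higher. The share of all genes 2-fold higher in those comparisons was 9.91 to 12.9% and that 2-fold lower 11.8 to 14.2%. Their median log2 ratio was 0.25 for BMP-2 over none, -0.02 for both over none, -0.32 for both over BMP-2 and -0.26 for both over IL-17A. The higher one was *Thbd*, which encodes thrombomodulin, the endothelial thrombin receptor, with 78 reads in the untreated library, 292 under IL-17A, 196 under BMP-2 and 410 under both cytokines. Its ratio was 4.08 (3.17 to 5.31) with IL-17A alone and 2.03 (1.71 to 2.42) when it was added to BMP-2. Of the endothelial markers, *Tek* had 0 reads in the untreated library, 51 under IL-17A, 63 under BMP-2 and 23 under both cytokines, and *Cd34* had 94, 44, 12 and 0 in that order. *Pecam1* and *Cdh5* had 0 reads, and a part of endothelial cells in the *Thbd* values was not tested. *F3*, which encodes tissue factor, the starter of clotting, had 3569 reads in the untreated library, 2665 under IL-17A, 1941 under BMP-2 and 2550 under both cytokines. Its lowest ratio was that of BMP-2 over none, 0.532 (0.503 to 0.562).

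*Eno1*, whose glycolytic enzyme is also a plasminogen receptor at cell surfaces, gave 1.25 (1.22 to 1.29) with IL-17A alone and 0.787 (0.768 to 0.807) when it was added to BMP-2. *Ahnak*, a scaffold that binds the annexin A2 complex, gave 0.794 (0.745 to 0.845) and 0.543 (0.511 to 0.578) in the same comparisons, both on the lower side like *Anxa2* and *S100a10*. *Lrp1*, the endocytic receptor that clears activator and serpin complexes, gave 1.18 (1.11 to 1.24) and 0.963 (0.914 to 1.01). *F2r*, the thrombin receptor gene, gave 0.724 (0.672 to 0.780) and 0.714 (0.660 to 0.772).

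Of 69 serpin genes 17 were measured, the 3 described above included, and 37 had 0 reads in every library. With IL-17A alone 4 were 2-fold higher and 3 lower, beside 10.9% and 9.91% of all measured genes. For both over BMP-2, 3 were higher and 2 lower, beside 12.9% and 14.1%. *Serping1*, the C1 inhibitor gene, gave 1.92 (1.81 to 2.04) and 1.55 (1.45 to 1.65). *Serpina3m* gave 7.08 (3.62 to 15.5) and 3.89 (2.59 to 6.01) from 10, 65, 30 and 120 reads. *Serpina3g* had 0 reads without cytokine and 71 with IL-17A, at least 25.8-fold higher with a floor of 3 reads in the former library, where the exact interval starts at 20.4. *Serpinh1*, the collagen chaperone HSP47, was as abundant as *Serpinf1* and gave 1.12 (1.1 to 1.15) and 0.972 (0.949 to 0.995). The *Serpina3* genes are near-identical copies, so their reads could be divided wrongly among them. The serpin counts were not particular to IL-17A. For BMP-2 over none 6 of the 17 were 2-fold higher and 2 lower, beside 10.7% and 11.8% of all measured genes. For both over IL-17A, 3 were higher and 3 lower, beside 9.91% and 13.6%, and for both over none 4 and 2, beside 12.1% and 14.2%.

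The annexin and S100 families that hold *Anxa2* and *S100a10* were mostly on the lower side with IL-17A. Of 9 measured annexins 6 were lower beyond counting error for IL-17A over none and 1 was higher, beside 29.3% and 29.8% of all measured genes, and 0 were 2-fold apart. For both over BMP-2, 6 were lower and 0 higher, beside 33.2% and 32.7%, with 2 of them, *Anxa8* and *Anxa11*, 2-fold lower, beside 14.1%. *Anxa1*, the most abundant, gave 0.655 (0.640 to 0.670) and 0.724 (0.708 to 0.740). The annexins were mostly lower with BMP-2 as well. For BMP-2 over none 5 were lower and 2 higher, beside 31.1% and 29.6% of all measured genes. For both over IL-17A 6 were lower and 2 higher, beside 32.5% and 29.8%. Of the S100 genes, 0 were lower and 3 higher in the former comparison, and 1 lower and 5 higher in the latter.

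Of 8 measured S100 genes 7 were lower beyond counting error for IL-17A over none, beside 29.3% of all measured genes, and 7 for both over BMP-2, beside 33.2%. In each case 1 of them, *S100a7a*, was 2-fold lower, beside 9.91% and 14.1%. *S100a4* gave 0.657 (0.625 to 0.691) and 0.725 (0.697 to 0.755). The median log2 ratio was -0.18 for the annexins and -0.38 for the S100 genes with IL-17A alone, and -0.42 and -0.27 where BMP-2 was present. In both families the median stayed below 0 in these comparisons under the other scalings and read types tried.

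**Figure D4:**
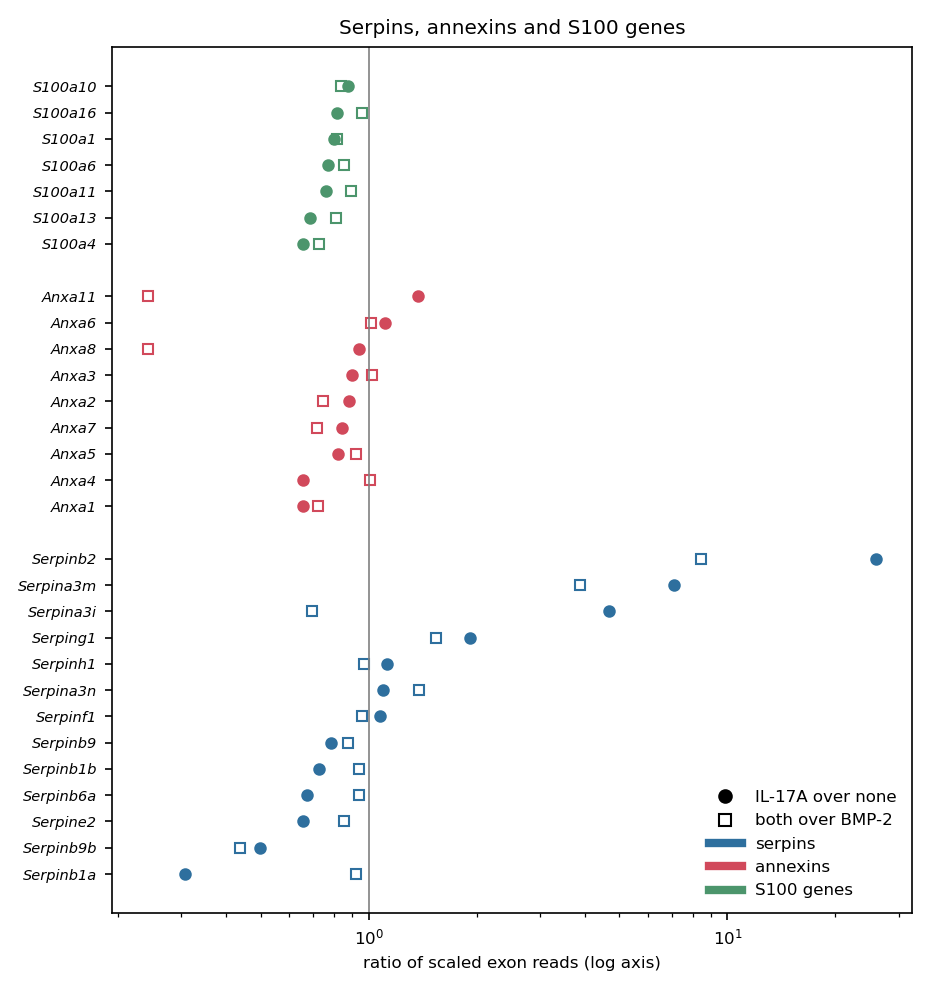
Ratio of TMM-scaled exon reads (log axis) for 13 of 17 measured serpins, 9 of 9 annexins and 7 of 8 S100 genes. *Serpina3c*, *Serpina3g*, *Serpinb8* and *S100a7a*, with 0 reads in a library compared, cannot be drawn on a log axis in at least 1 comparison and are left out, as is a further serpin. Filled circles are IL-17A over none and open squares both over BMP-2, single libraries throughout; all 7 S100 genes drawn lie left of 1 in both comparisons, and *Serpinb2* lies farthest right of the genes drawn.

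The genes whose log2 ratios to no cytokine over the 3 other libraries lay nearest to those of *Serpinb2*, among 8607 genes that averaged 50 reads or more, were *Kntc1* at a distance of 1.39, *Lcn2* at 1.57 and *Dhx34* at 1.75. *Lcn2*, which encodes the iron-carrier binding protein lipocalin 2, had 12 reads in the untreated library, 532 under IL-17A, 67 under BMP-2 and 578 under both cytokines. Where IL-17A was present its reads were alike with and without BMP-2, unlike those of *Serpinb2*. *Kntc1* had 2 reads and *Dhx34* 0 in the untreated library, so both distances rest on very few reads there. For *Plau* the nearest were *Tacc2* (0.155), *Cdk18* (0.229) and *Mrrf* (0.294), and for *Plaur* they were *Agps* (0.0503), *Gsr* (0.0721) and *Paxbp1* (0.0721). Such distances rest on 3 ratios that share 1 library and are a description only.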

How the data were processed

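Messenger RNA of PαS cells was measured in 4 libraries, 1 per condition. The authors amplified full-length cDNA from total RNA with a low-input kit that does not mark strand, sequenced it on an Ion Proton and assigned reads to genes in CLC Genomics Workbench, with settings not given in the sources used here. The submitters' processing notes name mm10. The deposited tables give counts of total exon reads, unique exon reads and spliced reads for 46517 genes, and RPKM that the authors computed from exon reads and reads assigned to genes.

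Exon reads, 4190612 to 4719412 per library, were brought to comparable sizes with the TMM factors of edgeR 4.0.16 in R 4.3.3. Ratios with exact (Clopper–Pearson) 95% intervals were computed in Python 3.11.15 (numpy 2.4.6, pandas 2.3.3, scipy 1.17.1, matplotlib 3.10.9). In counts simulated with Poisson error only, 95.6% of the intervals held the true ratio, which checks the calculation and not the spread between cultures. Medians used log2(CPM + 0.5). Genes that averaged 10 exon reads or more were counted as measured. No test was run, because each condition has 1 library and because the genes and lists were chosen with earlier results of these data known. All 8 genes are named, with up to 4 of each other list by mean reads and up to 3 by ratio, and the 3 nearest genes of *Serpinb2*, *Plau* and *Plaur*. Alternatives were other scalings (DESeq2 1.42.0 size factors, library totals, totals without the 100 most abundant genes, RPKM), unique or spliced reads, folds of 1.5 and 3, and filters at 1, 50 and 200 reads. Promoters came from RefSeq (GRCm38.p6) and transcripts from GENCODE M21. A listed gene is counted but not reported here.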

Additional observations from a re-analysis of the deposited data

Results flagged for a closer look

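*Serpinf1* was 1.07 times as high with IL-17A as without where BMP-2 was absent, and 0.959 times as high where BMP-2 was present, so the single libraries moved in opposite directions. *Anxa2* was 1.07 times as high with BMP-2 as without where IL-17A was absent, and 0.9 times as high where IL-17A was present. Both pairs of ratios lie outside counting error on opposite sides of 1 with TMM scaling. The *Serpinf1* ratio with BMP-2 was within counting error when scaled by library totals, 0.987 (0.966 to 1.01), and the *Anxa2* ratio without IL-17A was so from spliced reads, 1.03 (0.996 to 1.07). All 4 values are small, and the difference between culture conditions was not tested, since each has 1 library.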

How the results depend on the processing

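Precision was limited by the single library per condition and, for *Plau* and for *Serpinb2* without cytokine, by 13 to 59 and 16 reads. The 6 *Serpinb2* values, 5 ratios and the ratio of ratios, stayed near those given under the 4 other scalings and unique reads. Spliced reads moved 4 of them, to 62.0 for IL-17A over none, 24.4 for BMP-2 over none, 209 for both over none and 0.138 for the IL-17A ratio with BMP-2 over that without. They also turned *Serpinf1* for both over BMP-2 to 1.00 and *Serpine2* for both over IL-17A to 0.962. *Plat* for both over IL-17A went to 0.872, within counting error from exon and from spliced reads. With spliced reads *Plau* for both over BMP-2 was higher beyond counting error, at 1.76 (1.03 to 3.07). *Plaur* for IL-17A over none was lower beyond it, at 0.870 (0.764 to 0.990). Library totals and RPKM put *Plat* for both over IL-17A above counting error, at 1.20 (1.01 to 1.42) and 1.19 (1.004 to 1.41). The number of the 8 genes 2-fold higher for BMP-2 over none was 1 with spliced reads, a fold of 3, or filters at 50 and 200 reads, and the number for both over none was 1 with a fold of 3 and with the same filters. For both over IL-17A it was 1 at filters of 50 and 200 reads. A fold of 1.5 gave 2 higher and 1 lower genes for IL-17A over none and 3 higher genes for both over none. The share of all genes 2-fold higher over the comparisons moved as well, from 9.91 to 12.9% to 17.9 to 20.9% with a fold of 1.5, 5.09 to 7.31% with a fold of 3, 6.24 to 8.74% at 50 reads and 1.70 to 4.07% at 200 reads. The filters of 50 and 200 reads leave out *Plau* by construction. No paired analysis was possible because each condition has 1 library and no replicate numbers pair the libraries. A fit of both cytokines as additive terms, which would leave 1 residual degree of freedom, was not run.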
